A study of Mus musculus with 15 samples.

Results

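The genes described here belong to the bone morphogenetic protein (BMP) pathway, and RNA from fibroblasts sorted from the mouse thymus was their source. They were chosen by name in the deposited count table: the ligands Bmp2 and Bmp4, the antagonist Grem1, the receptors Bmpr1a and Bmpr2, and the target genes Id1, Id2 and Id3. Of these 8 names, 7 were rows among the 12763 genes of the table, and Grem1 was not analysed here. All cells came from young male wild-type (WT) mice that were either untreated or had received 425 rad of sublethal irradiation 1 or 3 days earlier. There were 5 libraries for each of the 3 groups. They were made by MARS-seq, a protocol that reads the 3' end of polyadenylated RNA and uses unique molecular identifiers (UMIs) to count molecules and not PCR copies. Untreated controls were matched for age. The sort label reads CD45-EpCAM+CD34+CD31-PDGFRalpha+. Whether each library came from its own animal is not in the labels, and p-values refer to the spread among samples, which may be technical.

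BMPs are secreted dimers of the TGF-beta superfamily. They bind a type II receptor such as BMPR2, which activates a type I receptor such as BMPR1A (ALK3), and the type I receptor phosphorylates SMAD1, SMAD5 and SMAD9, which enter the nucleus with SMAD4. The genes for the ID proteins, which have a helix-loop-helix but no DNA-binding region and hold E proteins off DNA, are classical early targets of that signal. Secreted antagonists such as the gremlins bind the ligands before they reach a receptor. In the thymus, BMP4 from the mesenchyme and endothelium is known to act on thymic epithelial cells and to sustain their transcription factor FOXN1.

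Promoter windows from RefSeq on GRCm38.p6, running from 250 bases before to 50 bases after the transcription start, were found for 5 of the 7 genes, namely Bmp4, Bmpr1a, Bmpr2, Id2 and Id3. Of these 5, the 4 whose RNA changed at day 1 are printed, because Bmp4 and the receptors went one way and Id3 the other. Capitals mark GGCGCC, a GC-rich element known to be bound by BMP SMADs, which reads the same on both strands. The windows lie at chr14:46390620-46390919 (minus strand) for Bmp4, chr14:34502497-34502796 (minus) for Bmpr1a, chr1:59764029-59764328 (plus) for Bmpr2 and chr4:136143572-136143871 (plus) for Id3. They are placed by the RefSeq start. By the GENCODE vM21 gene coordinates, the windows of Bmpr1a, Bmpr2, Id2 and Id3 lie wholly inside the gene, and that of Bmp4 extends upstream of it.
Bmp4: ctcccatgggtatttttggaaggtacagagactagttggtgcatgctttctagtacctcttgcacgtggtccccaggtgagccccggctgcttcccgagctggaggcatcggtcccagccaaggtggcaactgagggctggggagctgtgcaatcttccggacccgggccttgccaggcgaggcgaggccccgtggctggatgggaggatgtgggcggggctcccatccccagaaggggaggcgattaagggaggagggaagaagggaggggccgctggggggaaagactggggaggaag
Bmpr1a: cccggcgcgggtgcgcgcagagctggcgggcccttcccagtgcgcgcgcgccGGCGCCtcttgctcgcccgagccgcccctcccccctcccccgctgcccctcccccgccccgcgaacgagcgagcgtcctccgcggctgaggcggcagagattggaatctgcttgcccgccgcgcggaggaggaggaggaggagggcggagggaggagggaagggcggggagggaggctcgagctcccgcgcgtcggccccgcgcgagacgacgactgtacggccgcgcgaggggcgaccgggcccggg
Bmpr2: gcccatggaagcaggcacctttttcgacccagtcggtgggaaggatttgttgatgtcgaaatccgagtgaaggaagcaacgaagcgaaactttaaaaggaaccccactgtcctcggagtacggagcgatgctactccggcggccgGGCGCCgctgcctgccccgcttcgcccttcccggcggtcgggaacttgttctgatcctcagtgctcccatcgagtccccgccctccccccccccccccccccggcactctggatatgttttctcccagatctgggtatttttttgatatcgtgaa
Id3: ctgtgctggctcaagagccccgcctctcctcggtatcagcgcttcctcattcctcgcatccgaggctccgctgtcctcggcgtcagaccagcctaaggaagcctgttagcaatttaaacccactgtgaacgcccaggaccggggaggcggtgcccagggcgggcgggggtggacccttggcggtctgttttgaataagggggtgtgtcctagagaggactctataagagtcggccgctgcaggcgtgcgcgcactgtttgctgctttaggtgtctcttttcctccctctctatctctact
GGCGCC occurred once in the windows of Bmpr1a (starting at -198 from the transcription start), Bmpr2 (-105) and Id2 (-231), and those of Bmp4 and Id3 did not hold these letters. It was present in 11.9% of all RefSeq promoter windows of the same length. GC content was 79.3% in the Bmpr1a window and 59.3 to 64.00% in the other printed ones. The palindrome GTCTAGAC, another SMAD element, was in none of the 5 windows and in 0.213% of all windows. The E-box CANNTG, the site of the E proteins that IDs sequester, occurred 3 times for Bmp4, once for Id2 and in none of the other 3, against 72.3% of all windows with at least 1, and no match overlapped one of another motif.

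The untreated libraries totalled 1102176 to 2661621 UMIs, the day 1 libraries 740169 to 2638344 and the day 3 libraries 1967148 to 3750214. Levels below are CPM, UMIs per 1e+06 of the library total after TMM scaling, which takes most genes as unchanged. Differences are log2 changes ± SE from 1 edgeR quasi-likelihood fit over all 15 libraries, with p-values adjusted by Benjamini-Hochberg over the 10207 genes that passed a filter on low counts, and a gene was called at an adjusted p under 0.05. All 7 genes passed that filter. The fit called 2355 genes higher and 2362 lower at day 1. Day 3 gave 939 higher and 944 lower than untreated samples, and 1644 higher and 1691 lower than day 1. Scaling by total counts alone moved the median of all genes by -0.26, -0.12 and 0.14 (log2) in the same order, and the splits became 1498 and 3652, 660 and 1442, and 2305 and 1203. Of the gate's markers, Pdgfra stood at 310.2, 111 and 193 CPM and Cd34 at 1571, 523 and 1084 CPM in untreated, day 1 and day 3 samples, with no overlap between groups. Pdgfra changed by -1.47 ± 0.17 at day 1 and -0.68 ± 0.16 at day 3 (edgeR adjusted p = 5.1e-07 and 0.00615), and Cd34 by -1.58 ± 0.16 and -0.53 ± 0.16 (edgeR adjusted p = 1.0e-07 and 0.022). Epcam, given as positive on the label, summed to 11, 10 and 10 UMIs over the untreated, day 1 and day 3 libraries. Pecam1 (CD31) summed to 35, 59 and 47 UMIs, of which day 1 replicate 4 held 40, leaving 19 in the other 4 day 1 libraries, and Ptprc (CD45) to 35, 38 and 9. Day 1 replicate 1 had the fewest UMIs of any library and the lowest summed level of 12 fibroblast markers, at 17480.0 CPM against 47264 to 55574 in untreated samples.

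One day after irradiation 6 of the 7 genes were called, 4 lower and 2 higher, where 46.2% of all tested genes were called, 23.1% lower and 23.1% higher. Both ligands and both receptors fell, as did the gate's markers Pdgfra and Cd34, whose part in these falls was not tested. Id1 and Id3 rose, and Id2 was not called. At day 3, Bmp2, Bmp4 and Bmpr2 were still lower than in untreated samples, 3 genes of 7 and none higher, against 9.25% of all tested genes lower, 9.20% higher and 18.4% in either direction. Between day 1 and day 3 Bmp4 and Bmpr1a rose and Id3 fell, against 32.7% of all genes called, 16.1% higher and 16.6% lower. Library values did not overlap with untreated ones for 3 genes lower and 1 higher at day 1, where 14.2% and 13.4% of all genes did so, and for 2 lower and none higher at day 3, where 7.25% and 7.78% did so. Between day 3 and day 1 that held for 2 genes higher and 1 lower, against 10.5% and 10.1% of all genes. In bulk RNA of a sorted population, fewer cells that make a transcript and less of it per cell cannot be told apart.

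**Figure D1:**
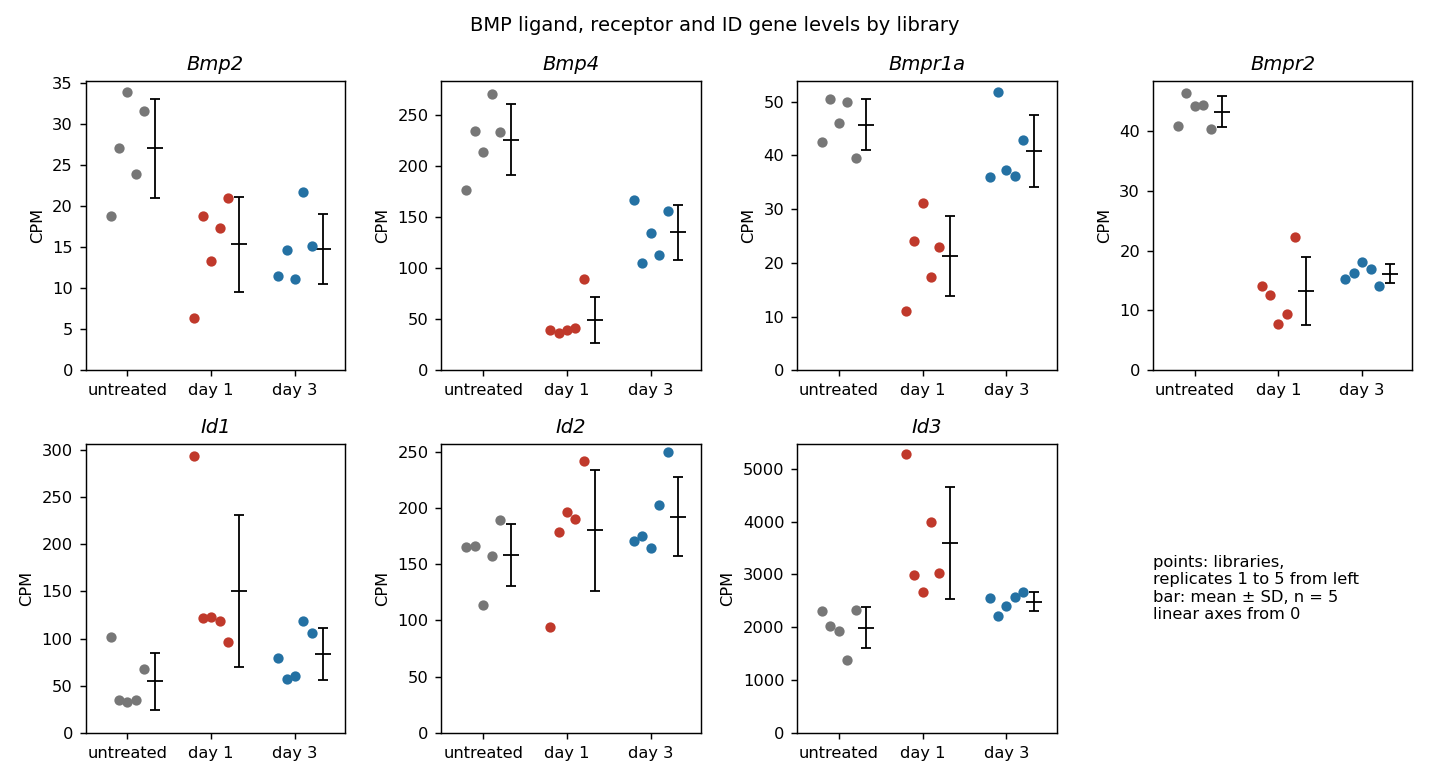
CPM of the 7 genes in each of the 15 libraries, with the mean and SD of each group of 5, on linear axes that start at 0. Bmp4, Bmpr1a and Bmpr2 were lower in every day 1 library than in any untreated one, and Id3 was higher in every day 1 library than in any untreated one.

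Bmp4 (ENSMUSG00000021835, chr14:46383520-46390669 on GRCm38, minus strand) encodes the BMP that acts on thymic epithelium. Its untreated libraries held 176, 234, 214, 271 and 234 CPM, in the order of replicates 1 to 5. Day 1 libraries held 39.4, 36.2, 39.6, 41.6 and 89.2 CPM and day 3 libraries 167, 105, 135, 113 and 156 CPM. No values of the 3 groups overlapped, and day 1 replicate 5 was the one day 1 library that stood above the other 4, at less than the lowest day 3 value. The fitted change at day 1 was -2.20 ± 0.22 on the log2 scale, 0.217 times the untreated level (edgeR adjusted p = 7.3e-08), and -2.52 without day 1 replicate 5. By day 3 it had come back from 49.2 ± 22.5 to 135 ± 26.7 CPM (mean ± SD, n = 5), a change of 1.46 ± 0.22 (edgeR adjusted p = 2.6e-05). That level remained below the untreated mean of 226 ± 34.6 CPM, with a change of -0.74 ± 0.20 against untreated samples (edgeR adjusted p = 0.0143). The order of the groups was therefore untreated, day 3, day 1, with each step called. Bmp4 shares its locus with 2 genes on the opposite strand in GENCODE vM21, Gm15217 and Gm15222, and the sources used here do not say whether counting used strand.

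Bmp2 (ENSMUSG00000027358, chr2:133552159-133562885, plus strand) encodes the closest relative of BMP4. Its level was 18.7, 27.1, 33.8, 23.8 and 31.5 CPM in the untreated libraries, 6.30, 18.8, 13.3, 17.3 and 21.00 at day 1 and 11.5, 14.6, 11.1, 21.7 and 15.1 at day 3. Untreated values were the higher ones, but untreated replicate 1 lay within the range of both irradiated groups, so the groups overlapped. Bmp2 fell at day 1 by 0.76 ± 0.23 (edgeR adjusted p = 0.011) and was lower at day 3 as well, with a change of -0.87 ± 0.22 against untreated samples (edgeR adjusted p = 0.0091). From day 1 to day 3 the change was -0.11 ± 0.24 and was not called (edgeR adjusted p = 0.761). The low values rest on few molecules, with 4 UMIs of Bmp2 in day 1 replicate 1.

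Bmpr1a (ENSMUSG00000021796, chr14:34410734-34503341, minus strand) encodes a type I receptor. Untreated libraries held 42.5, 50.5, 46.04, 50.05 and 39.6 CPM, day 1 libraries 11.02, 23.99, 31.1, 17.3 and 22.97 and day 3 libraries 36.00, 51.8, 37.3, 36.2 and 42.9. Every day 1 value was below every untreated and every day 3 value, while day 3 and untreated values overlapped. Bmpr1a changed by -1.03 ± 0.19 at day 1 (edgeR adjusted p = 1.5e-04) and by 0.86 ± 0.19 from day 1 to day 3 (edgeR adjusted p = 0.00125). Against untreated samples the day 3 change was -0.16 ± 0.17 and was not called (edgeR adjusted p = 0.567). An antisense gene, Gm17110, overlaps it.

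Bmpr2 (ENSMUSG00000067336, chr1:59763400-59879014, plus strand) encodes the type II receptor specific to BMPs, whose partial loss causes heritable pulmonary arterial hypertension in humans. Its values were 40.8, 46.5, 44.2, 44.3 and 40.4 CPM untreated, 14.2, 12.6, 7.67, 9.40 and 22.3 at day 1 and 15.2, 16.2, 18.2, 16.99 and 14.1 at day 3. The untreated libraries lay close together and above all 10 irradiated ones, and the irradiated groups overlapped. The day 1 change was -1.77 ± 0.21 (edgeR adjusted p = 7.5e-07), and at day 3 the gene was still at 0.371 times the untreated level, a change of -1.43 ± 0.19 (edgeR adjusted p = 2.5e-05). From day 1 to day 3 the change was 0.34 ± 0.22 (edgeR adjusted p = 0.25), and it was called at 0.62 without day 1 replicate 5 (edgeR adjusted p = 0.0214). At day 3 the library values of Bmpr1a thus overlapped with untreated ones and those of Bmpr2 did not. Gm38125, a locus that the annotation lists as awaiting experimental evidence, overlaps Bmpr2 on the same strand.

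Among the 3 targets, Id3 (ENSMUSG00000007872, chr4:136143497-136145755, plus strand) had the most UMIs, 2701 to 9228 a library. Untreated values were 2298, 2021, 1932, 1382 and 2331 CPM, day 1 values 5277, 2991, 2669.5, 3999 and 3024 and day 3 values 2550.0, 2214, 2408, 2571 and 2666. Day 1 did not overlap with either of the other groups, though its lowest value and the highest day 3 value lay next to each other, and day 3 overlapped with untreated. The rise at day 1 was 0.85 ± 0.18, or 1.80 times (edgeR adjusted p = 6.6e-04). From day 1 to day 3 Id3 changed by -0.53 ± 0.18 (edgeR adjusted p = 0.0278), a call that was lost with total counts (log2 -0.37, edgeR adjusted p = 0.101) and without any one of day 1 replicates 1 and 4 or day 3 replicates 2 and 3 (edgeR adjusted p = 0.077, 0.0664, 0.0676 and 0.0537). Day 3 against untreated gave 0.32 ± 0.18 and no call (edgeR adjusted p = 0.244).

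Id1 (ENSMUSG00000042745, chr2:152736251-152737410, plus strand) varied most within groups. It stood at 102, 35.2, 33.1, 34.6 and 67.7 CPM in untreated libraries, at 293, 121, 123, 118 and 95.8 at day 1 and at 79.1, 56.7, 60.04, 119 and 106 at day 3. Day 1 replicate 1 was far above the other day 1 libraries, and untreated replicate 1 was above the other untreated ones and above day 1 replicate 5, so the groups overlapped. Id1 rose at day 1 by 1.47 ± 0.37 (edgeR adjusted p = 0.00476), and by 1.14 without day 1 replicate 1 (edgeR adjusted p = 0.0136). At day 3 it was 0.67 ± 0.37 from untreated samples and not called (edgeR adjusted p = 0.23), but it was called at 0.99 without untreated replicate 1 (edgeR adjusted p = 0.0446). Day 3 against day 1 was -0.79 ± 0.36 (edgeR adjusted p = 0.105), and -0.45 without day 1 replicate 1.

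Id2 (ENSMUSG00000020644, chr12:25093799-25097140, minus strand), known for its part in innate lymphocyte development, was not called in any comparison. Values ran from 114 to 189 CPM untreated, 94.5 to 242 at day 1 and 164 to 249 at day 3, with day 1 replicate 1 the lowest of the 15. The changes were 0.20 ± 0.19, 0.28 ± 0.19 and 0.079 ± 0.19 for day 1 and day 3 against untreated samples and day 3 against day 1 (edgeR adjusted p = 0.403, 0.335 and 0.785), and the first had the opposite sign with total counts (-0.055). In the authors' deposited table, the adjusted p of 6, 3 and 3 of the 7 genes was under 0.05 in the 3 comparisons, and for all 7 the side of that threshold and the direction were those given above. For the direction, the deposited log2 changes were read as the first-named group over the second and their signs were reversed. As deposited, Bmp4 stands at 2.20 for untreated and day 1.

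**Figure D2:**
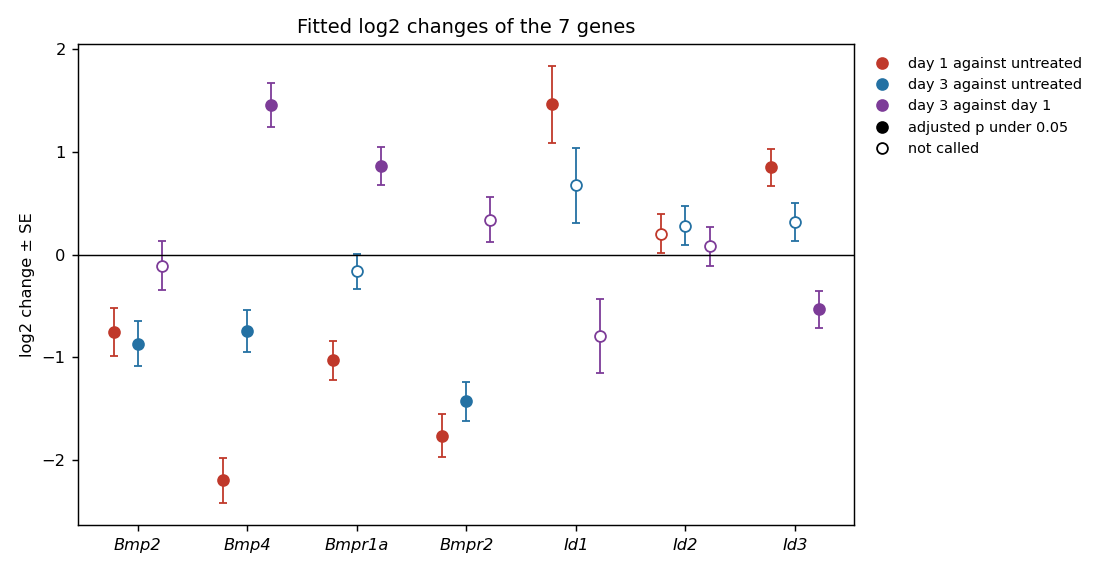
Fitted log2 change with its SE for each gene in the 3 comparisons, where filled points passed an adjusted p of 0.05 and open points did not. The comparisons of day 1 and day 3 with untreated samples share the untreated libraries. Bmp4 changed by -2.20 at day 1 and -0.74 at day 3, and Bmpr2 by -1.77 and -1.43.

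The rest of the pathway was read from lists ordered by role, which include the genes above. Of 17 BMP and GDF ligands, 7 were tested, and 6 fell and none rose at day 1, with a median log2 change of -2.12 against -0.023 over all genes tested. The falls were 85.7% of the list, beside 23.1% of all genes. The count and median include genes with few molecules at day 1, Bmp5 with 7 UMIs, Bmp3 with 10 and Gdf6 with 22 over the 5 libraries. These passed the filter through the groups where they were higher. Bmp7, best known from kidney and bone, went from 26.3 ± 13.6 to 6.14 ± 1.53 CPM (-2.12 ± 0.30, edgeR adjusted p = 8.9e-06), and Gdf6, known from joint and skeletal patterning, changed by -1.86. Bmp5 was at 5.55 CPM untreated and 0.692 at day 1. Bmp6, which controls hepcidin in the liver, was the tested ligand not called at day 1 (0.31 ± 0.31, edgeR adjusted p = 0.431). At day 3, 5 of 7 ligands were lower than in untreated samples, 71.4% beside 9.25% of all genes. Since day 1, 4 had risen, 57.1% beside 16.1% of all genes, among them Bmp5 and Gdf6 with their few day 1 UMIs. Bmp7 was in both counts (-1.18 against untreated and 0.94 against day 1). Bmp3 went from 6.12 CPM untreated to 1.76 at day 3 (74 and 27 UMIs), and Bmp5, with a change of -0.24 ± 0.37 (edgeR adjusted p = 0.719), was not called, nor was Bmp6 (-0.16 ± 0.30, edgeR adjusted p = 0.77). Counts for the ligands were the same with RLE factors, with total counts and without day 1 replicate 1.

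All 10 tested receptors and co-receptors were called at day 1, 9 lower and 1 higher, with a median of -1.08. That was 90% and 10% of the list, beside 23.1% of all tested genes in each direction. The co-receptor Rgmb, a GPI-anchored protein that binds BMP2 and BMP4, went from 38.9 ± 7.62 to 10.3 ± 3.94 CPM (edgeR adjusted p = 2.6e-07). Acvrl1 (ALK1), the type I receptor best known from endothelium, changed by -1.20 ± 0.15, Tgfbr3 (betaglycan), a co-receptor, by -1.12 ± 0.18 and Acvr1 (ALK2), another type I receptor, by -0.54 ± 0.18 (edgeR adjusted p values up to 0.0181). The one that rose was Eng (endoglin), the co-receptor for BMP9 and BMP10, from 295 ± 41.9 to 558 ± 119 CPM (0.92 ± 0.19, edgeR adjusted p = 4.6e-04). At day 3, 4 of 10 were lower, beside 9.25% of all genes, namely Bmpr2, Rgmb (-0.67), Acvrl1 (-0.51) and Acvr2a (-0.72). From day 1 to day 3, 6 rose and Eng fell (-0.96 ± 0.19, edgeR adjusted p = 4.8e-04), with 8 higher under total counts and 8 without day 1 replicate 1. In the main fit that was 60% and 10% of the list, beside 16.1% and 16.6% of all genes.

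Secreted antagonists and modulators, a list that also holds the chordin-cleaving protease gene Bmp1, had 6 of 15 lower and 1 higher at day 1 (median -0.35), so 46.7% were called, near the 46.2% of all genes tested. Nbl1 (DAN), a BMP antagonist, fell from 2572 ± 436 to 713 ± 241 CPM at day 1 and was at 1968 ± 322 at day 3 (edgeR adjusted p = 2.7e-07 at day 1 and, not called, 0.186 at day 3). Follistatin-like Fstl1 fell at both times (-1.18 and -0.78), the kielin/chordin-like gene Kcp at day 1 (-0.94), and Twsg1, which helps chordin bind BMPs, changed by -0.74 ± 0.18 at day 1 (edgeR adjusted p = 0.00159). The gene that rose at day 1 was follistatin-like Fstl3 (0.90 ± 0.27, edgeR adjusted p = 0.0103), which fell from day 1 to day 3 (-1.04). The secreted proteases Htra3 and Htra1 changed by -1.21 and -0.56 at day 1, and by 1.45 and 1.08 from day 1 to day 3, when Htra1 was above its untreated level (0.52). The noggin gene Nog had 15 UMIs over the untreated libraries and did not pass the filter. Follistatin Fst (-0.34 ± 0.22), Chrdl1 (-0.69 ± 0.32) and Bmper (-0.32 ± 0.26) were not called at day 1 (edgeR adjusted p = 0.224, 0.0825 and 0.342), nor in the other comparisons. Over the list, 2 were higher and 1 lower at day 3 (20% of the list, near the 18.4% of all genes). From day 1 to day 3, 6 rose and 1 fell (46.7% of the list, beside 32.7% of all genes). With total counts Fstl3 was no longer called, and the list had 0 higher and 8 lower at day 1 and a day 3 median of -0.021 in place of 0.099.

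In the list of SMADs and their intracellular regulators 3 of 19 tested rose and 8 fell at day 1, or 15.8% and 42.1%, beside 23.1% and 23.1% of all genes. Smad5 and Smad4, which carry the signal, changed by -1.11 ± 0.16 and -1.45 ± 0.30 (edgeR adjusted p = 9.1e-06 and 4.8e-04). Smad1, the other tested BMP-specific transducer, showed no call at day 1 (0.42 ± 0.25, edgeR adjusted p = 0.167), and Smad9 did not pass the filter. The inhibitory SMADs, which are themselves induced by the pathway, rose, Smad7 from 111 ± 28.7 to 266 ± 44.8 CPM and Smad6 from 25.6 ± 4.16 to 52.6 ± 16.7 (edgeR adjusted p = 6.5e-06 and 2.1e-04). Smad7 is also induced by TGF-beta and interferon-gamma. From day 1 to day 3 Smad7 and Smad6 fell (-0.96 ± 0.17 and -0.47 ± 0.18, edgeR adjusted p = 2.1e-04 and 0.0486) while Smad5 and Smad4 rose (0.72 and 1.26), as did the phosphatase gene Ctdsp2 (0.82). Smad7 and Smad6 were the 2 genes of the list that fell then, 10.5% of it beside 16.6% of all genes. With total counts, and also without day 1 replicate 1, the list had 1 such gene. The third gene that rose at day 1 was Tob1 (1.05 ± 0.24), an anti-proliferative regulator. At day 3 Tob1 was the 1 gene of the list called against untreated samples (1.04 ± 0.23, edgeR adjusted p = 0.00393), or 5.26% of the list beside 18.4% of all genes, with 3 higher and 1 lower without day 1 replicate 1. The day 3 median went from 0.085 to -0.036 with total counts.

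Of 11 tested target genes, 7 rose and none fell at day 1, 63.6% of the list against 23.1% of all genes, with a median of 0.85, and total counts gave 6 higher and 1 lower. Besides Id1 and Id3, the transcription factor genes Tbx3 (1.00 ± 0.19), Atoh8 (1.12 ± 0.24), Gata6 (0.68 ± 0.20) and Junb (0.90 ± 0.16) and the Notch target Hey1 rose (edgeR adjusted p values up to 0.00788). Hey1 had a mean of 3.29 CPM untreated and 8.21 at day 1. Junb is also an immediate-early gene. Not called at day 1 were Id2 (0.20), Hes1 (0.30), Msx1 (-0.32 ± 0.24, edgeR adjusted p = 0.295) and Smpd3 (-0.75 ± 0.32, edgeR adjusted p = 0.0653). At day 3 Junb (0.69) and Gata6 (0.61) were the 2 called against untreated samples, 18.2% of the list, near the 18.4% of all genes. From day 1 to day 3, 4 fell, Id3, Tbx3 (-1.09), Hey1 (-1.09) and Hes1 (-0.54), and Smpd3 rose (1.06). That was 36.4% and 9.09% of the list, beside 16.6% and 16.1% of all genes. With total counts, however, 1 fell and 1 rose. Without day 1 replicate 1, 2 fell and none rose, so the call of Smpd3 was lost there. Id4 had too few UMIs to be tested. Tcf4 and Tcf12, whose E proteins are bound by IDs, changed by -1.80 ± 0.27 and -0.75 ± 0.18 at day 1 (edgeR adjusted p = 2.4e-05 and 0.00204), and the third, Tcf3, was not called (0.27 ± 0.19, edgeR adjusted p = 0.243). Both rose from day 1 to day 3 (1.08 and 0.92), and Tcf4 was lower at day 3 than in untreated samples (-0.72, edgeR adjusted p = 0.0429), a call absent without day 1 replicate 1. Taking only the 58 tested pathway genes other than the 7, 63.8% were called at day 1, 22.4% at day 3 and 51.7% between day 1 and day 3, beside the 46.2, 18.4 and 32.7% of all genes.

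**Figure D3:**
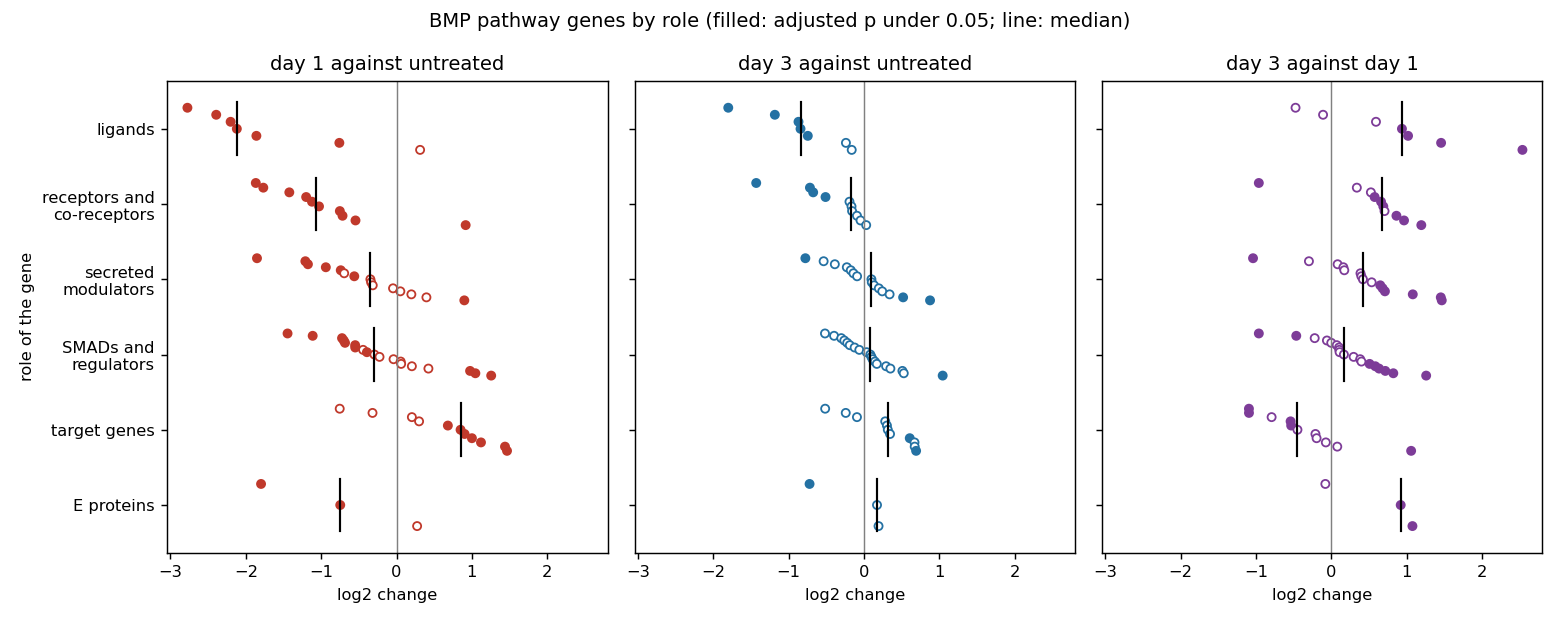
Log2 change of each tested pathway gene, grouped by role, in the 3 comparisons, with filled points at an adjusted p under 0.05 and a line at each group's median. At day 1 the ligand median was -2.12, the receptor median -1.08 and the target median 0.85.

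Transcripts of other cell types moved at day 1 as well. Markers of macrophages and dendritic cells, 17 genes, summed to 97.7 to 458 CPM in untreated libraries, 629.6 to 1340.1 at day 1 and 72.6 to 142 at day 3, and the sum was highest in day 1 replicate 1, the library with the most Id1 and Id3. Day 1 replicates 1 to 5 summed to 1340.1, 922, 629.6, 765 and 843 CPM. Among them Id1 was lowest in replicate 5 (95.8 CPM) and Id3 in replicate 3 (2669.5 CPM). Of the list, 11 genes were tested, and 8 were higher and 0 lower at day 1, when 23.1% of all tested genes were called in each direction. Lyz2, C1qa and Mertk were not called. Mesothelial markers, 9 of 10 in the table and all 9 higher at day 1, summed to 119.6 to 431, 488 to 3311 and 341 to 1604 CPM in the same order, and 13 pericyte and smooth muscle markers to 484 to 681, 851 to 1255 and 481 to 882. Of these 13, 11 were tested, and 5 were higher and 1 lower at day 1, beside 23.1% of all genes in each direction. The lower one was Abcc9 (-2.78 ± 0.36, edgeR adjusted p = 4.1e-06). Pdgfrb and Des had the highest day 1 means, 351 and 301 CPM, and Des was not called. Endothelial cells, which express Id1 and Id3 strongly, were followed by 19 markers, of which 7 were tested, with 3 higher and 2 lower at day 1. All 19 summed to 465 to 548, 644 to 1046 and 420.3 to 632 CPM. Without Eng, which is also in the receptor list, the other 18 summed to 172 to 248, 164 to 494 and 185 to 255 CPM, so these sums overlapped between all groups. Cdh5 (VE-cadherin), found in nearly all endothelium, gave 5, 35 and 4 UMIs over the untreated, day 1 and day 3 libraries. Day 1 replicate 4 held 28 of the 35, leaving 7 in the other 4, and it also had the highest endothelial sum without Eng, 494 CPM against 164 to 245 in the other day 1 libraries. Without that library Id1 and Id3 changed at day 1 by 1.53 and 0.80 (edgeR adjusted p = 0.00732 and 0.00252). Without day 1 replicate 1, where the macrophage and dendritic cell sum was highest, they changed by 1.14 and 0.68 (edgeR adjusted p = 0.0136 and 0.00107). Both libraries were singled out after their values were seen. Fibroblast markers, 9 of 12 lower and 1 higher at day 1, summed to 47264 to 55574, 17480.0 to 41082 and 41096 to 50040.0 CPM. Thymic epithelial markers, 9 of 14 in the table, summed to 24.6 to 36.6, 36.7 to 341 and 45.4 to 171 CPM. Of 4 tested, 3 were higher at day 1, with untreated and day 1 means of 3.97 and 72.0 CPM for Krt8, 1.95 and 35.1 for Krt14, and 16.1 and 45.5 for Cldn3. Krt8 is also in the mesothelial list, Ccl25 was not called, and the others in the table, Epcam among them, were not tested. Thymocyte markers, 7 of 13 in the table and none tested, summed to 3.40 to 49.3, 3.23 to 9.90 and 2.02 to 5.59 CPM. Among these lists Cd8a had no UMI at day 1 and Fcgr1 none at day 3. The part of these cells in the changes of the BMP genes was not tested.

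**Figure D4:**
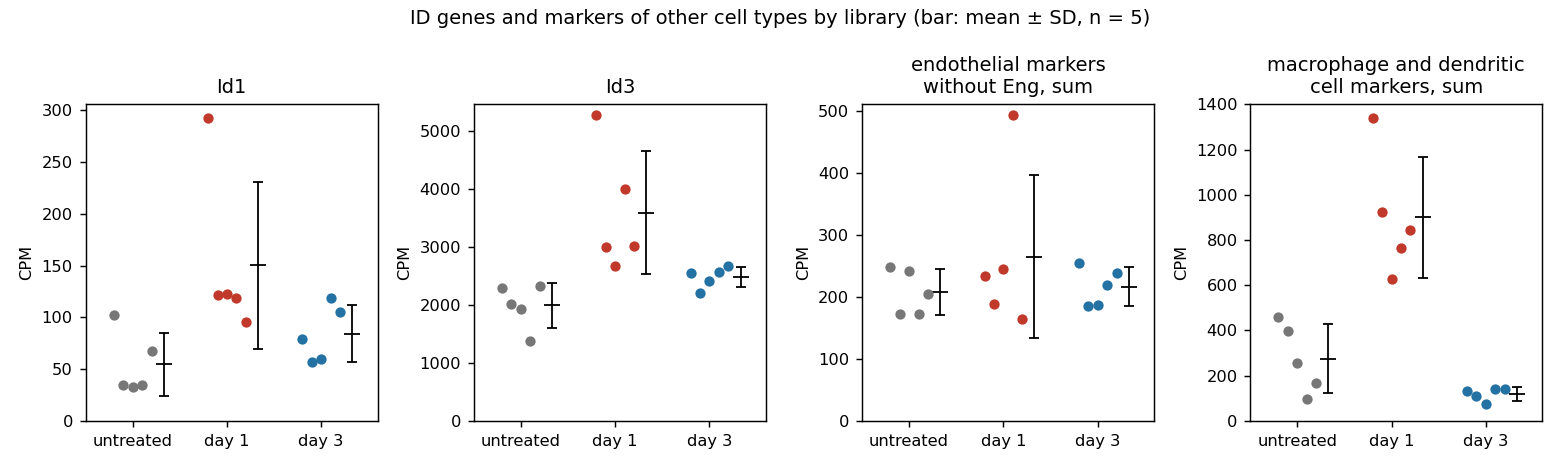
CPM of Id1 and Id3 beside the summed CPM of endothelial markers without Eng and of macrophage and dendritic cell markers, by library, with the mean and SD of each group of 5. Macrophage and dendritic cell markers were above every untreated value in all day 1 libraries, and endothelial markers ranged from 172 to 248 CPM untreated and 164 to 494 at day 1.

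Genes with the most similar profiles were found by the root mean square difference of log2 CPM over the 15 libraries after centring each gene, among 5543 genes that averaged 20 CPM or more (5544 for Bmp2). For Bmp4 they were Tril and Tmem106b, at 0.20 and 0.22, where Bmp4 itself had an SD of 1.03. Tril went from 50.4 to 11.04 and 30.1 CPM. Nearest to Bmp2 were Pum2 and Gdi2 (0.19 and 0.23), to Bmpr1a Grb10 and Kidins220 (0.19 for both), and to Bmpr2 Ogn, which encodes the matrix proteoglycan osteoglycin, and Efcc1 (0.25 and 0.29). Id1 had no neighbour as close: its nearest was the immediate-early gene Ier2, at 0.37. Ier2 stood at 507, 1074 and 725 CPM in untreated, day 1 and day 3 samples. Id3 was nearest to the DNA repair polymerase gene Polb and to Ubb (0.16 and 0.18), and Id2 to Hand2 and Lmo4 (0.19 and 0.23).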

How the data were processed

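RNA of sorted thymic fibroblasts was measured in 15 MARS-seq libraries. The deposited table holds raw UMI counts per gene, not scaled by the authors, per the file headers. Tools listed in the submitters' processing notes are STAR 2.5.2b, HTSeq, DESeq2, bcl2fastq and cutadapt, and the build is mm10. The authors' fold changes are on a log2 scale and their adjusted p-values are in the deposited table, and both served for 1 stated comparison. The raw counts were filtered with filterByExpr and fitted in R 4.3.3 with edgeR 4.0.16 (TMM, robust quasi-likelihood, group as the factor). The SE is the size of the log2 change divided by the square root of F. The script was tested on simulated data. Sequence matching and figures used Python 3.11.15. Alternatives were DESeq2 1.42.0, limma 3.58.1 voom, other scalings, no filter, fits of just the groups being compared, a block for the replicate number, and leaving out each library.

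The members and lists were chosen with earlier results of these data known. Named genes were the members, fixed pathway genes, up to 4 called genes of smallest p per list and comparison, and the 2 nearest profiles. Fstl3, Hes1, Msx1, Tcf3, Cdh5, Cd8a and Fcgr1 were named outside this rule, after their values were seen, and so was the endothelial sum without Eng. The same holds for the markers Krt8, Krt14, Cldn3, Ccl25, Lyz2, C1qa, Mertk, Abcc9, Pdgfrb and Des. Bambi was not analysed here, and some genes that the rule would name are not reported here. Gene coordinates are from GENCODE vM21 on GRCm38, which mm10 denotes, and promoters are from RefSeq. With 4 to 94 UMIs a library, Bmp2 is counted least precisely. Samples with the same replicate number were not treated as pairs.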

Additional observations from a re-analysis of the deposited data

Results flagged for a closer look

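In a test for a single library far from the rest of its group of 5, run on 21 groups of values (7 genes in 3 groups), 2 libraries stood out, where chance gives about 1 in 20 groups. Day 1 replicate 5 held 89.2 CPM of Bmp4 against 36.2 to 41.6 in the other 4 day 1 libraries. Day 1 replicate 1 held 293 CPM of Id1 against 95.8 to 123 in the other 4. The changes from untreated samples differed between day 1 and day 3, which the day 3 against day 1 comparison tests, for Bmp4 (1.46 on the log2 scale), Bmpr1a (0.86) and Id3 (-0.53), with the edgeR adjusted p values given above.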

How the results depend on the processing

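Over 21 results (7 genes in 3 comparisons) and 22 alternatives each, 450 of 462 values kept the direction and the side of the threshold. Of the others, 5 lost the call, all for Id3 between day 1 and day 3, 3 gained one (2 for Id1 and 1 for Bmpr2) and 4 changed sign, all in uncalled results. These were Id2 at day 1 with total counts (-0.055), Bmp2 from day 1 to day 3 with total counts (0.035), and Id2 from day 1 to day 3 without day 1 replicate 1 (-0.074) or day 3 replicate 5 (-0.022), where leaving out single libraries gave -0.074 to 0.19. The cause was not tested. The number of the 7 genes called was 6 under every alternative at day 1, 3 or 4 at day 3 and 2 to 4 between day 1 and day 3. Samples sharing a replicate number did not deviate together (correlation of deviations from -0.352 to 0.166 over 15 pairs). With the replicate number as a block, 4511, 1596 and 3102 genes were called, and 6, 3 and 4 of the 7, the fourth being Id1 from day 1 to day 3 (-0.75, edgeR adjusted p = 0.0415). Depth limits Bmp2, Bmpr1a and Bmpr2 most, with 4, 7 and 9 UMIs in day 1 replicate 1. Pathway counts under other scalings and without that library were added after seeing the data.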

Other observations

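Ratios of raw UMIs within a library do not depend on scaling. There were 0.979 to 1.13 Bmpr1a UMIs per Bmpr2 UMI in untreated libraries, 0.778 to 4.05 at day 1 and 2.06 to 3.20 at day 3, so day 3 did not overlap with untreated. Bmp4 UMIs per Bmp2 UMI were 6.33 to 11.4, 1.93 to 6.25 and 5.21 to 14.5, lower in each day 1 library than in any untreated one. That separation is narrow, as the day 1 value of 6.25 rests on 25 Bmp4 and 4 Bmp2 UMIs in day 1 replicate 1. Id1 UMIs per Bmp4 UMI were 0.128 to 0.580, 1.07 to 7.44 and 0.446 to 1.05, higher in each day 1 library than in any untreated or day 3 one. Id3 UMIs per Id1 UMI overlapped between all groups, at 22.5 to 58.4, 18.02 to 33.8 and 21.6 to 40.1. These ratios were looked at after the single genes and were not tested.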
